A study of Mus musculus with 6 samples.

Results

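The genes described here are the switch that lets a cell leave G1 phase: the INK4 inhibitors Cdkn2a, Cdkn2b, Cdkn2c and Cdkn2d, the related inhibitor Cdkn1b (p27), the pocket protein genes Rb1 and Rbl1, and the D cyclins Ccnd1, Ccnd2 and Ccnd3. They were chosen by name, as 10 of the 56953 genes in the table, and all 10 were found by their Ensembl identifiers in the GENCODE annotation. Of these, 9 were expressed enough to be tested and 1, Cdkn2b, was listed at 0 in every library. The samples were mouse embryonic fibroblasts (MEFs), connective tissue cells grown from embryos, and the 6 RNA sequencing libraries comprised 3 of a line labelled WT and 3 of a line labelled GαqKO. Cells of the GαqKO line are said in the paper to lack both Gαq and Gα11, the alpha subunits that couple many receptors to phospholipase C. Both lines were grown in the same serum-containing medium with no treatment named. The age, strain and number of embryos or clones behind each line are not given in the sources used here, so p-values measure the spread between these cultures and not between embryos.

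In G1, a D cyclin binds CDK4 or CDK6, and the complex phosphorylates the pocket proteins RB, p107 (the product of Rbl1) and p130 (the product of Rbl2), which then release E2F transcription factors and allow DNA replication genes to be expressed. INK4 proteins (p16 from Cdkn2a, p15 from Cdkn2b, p18 from Cdkn2c and p19 from Cdkn2d) bind CDK4 and CDK6 and keep D cyclins from activating them, whereas p27 acts mainly on CDK2 complexes. The Cdkn2a locus also encodes p19ARF, from another promoter and another reading frame, which stabilizes p53. In MEFs, INK4 and ARF messages are known to build up with time in culture, and loss of the locus or of p53 is a common route to immortal lines.

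The deposited values were normalized counts, that is, the reads of a gene scaled by 1 factor for each library. They summed to between 11392429 and 11483486 per library, and the reads recovered from 5 libraries ranged from 9853000 to 12229175. In RNA, the targeted genes followed the label only in part. Gnaq, which encodes Gαq, had 1665, 1660 and 1747 normalized counts in WT and 1960, 1931 and 1888 in the libraries labelled GαqKO, whereas Gna11, which encodes Gα11, had 2123 to 2180 in WT against 419 to 472. The deleted part of Gnaq is not given in the sources used here, and a count over a whole gene does not show the loss of an exon. The paper reports that Gαq protein was missing from GαqKO cells by Western blot and immunofluorescence. The lines also differed in sex-linked genes, since the Y-linked Ddx3y had 1139 to 1239 normalized counts in WT and was listed at 0 in all 3 libraries labelled GαqKO, and Eif2s3y and Kdm5d showed the same pattern. Xist was listed at 0 in all 6 libraries. Genotype and line therefore cannot be told apart in any comparison below.

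At the Cdkn2a locus, the gene count joins transcripts from promoters that lie far apart and cannot separate them. The bases before each start are shown as a description of sequence. They do not show from which start the counted reads came. The windows are the 250 bases before each RefSeq start on GRCm38.p6, written 5′ to 3′ along the transcript, which here is the minus strand. Capitals mark GGGCGG or its reverse complement CCGCCC (SP1 type), TGACGTCA (the cyclic AMP response element, CRE) and TTTCGCGC or TTTGGCGC (E2F type), searched on both strands with no overlap between matches. The first window, chr4:89294620-89294869, precedes the upstream start of Cdkn2a, which is that of p19ARF. The second, chr4:89282193-89282442, precedes the downstream start, that of p16. The third, chr4:89311033-89311282, precedes Cdkn2b.
Cdkn2a, upstream start: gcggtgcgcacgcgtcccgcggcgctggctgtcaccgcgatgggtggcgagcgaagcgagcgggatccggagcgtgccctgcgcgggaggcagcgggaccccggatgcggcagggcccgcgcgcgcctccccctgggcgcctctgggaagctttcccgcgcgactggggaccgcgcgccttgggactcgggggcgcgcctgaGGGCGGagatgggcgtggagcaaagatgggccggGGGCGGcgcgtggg
Cdkn2a, downstream start: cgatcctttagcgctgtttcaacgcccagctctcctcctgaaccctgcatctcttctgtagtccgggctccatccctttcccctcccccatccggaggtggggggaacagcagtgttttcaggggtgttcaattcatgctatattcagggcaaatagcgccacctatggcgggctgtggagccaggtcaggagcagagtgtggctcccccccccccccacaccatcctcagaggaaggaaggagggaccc
Cdkn2b: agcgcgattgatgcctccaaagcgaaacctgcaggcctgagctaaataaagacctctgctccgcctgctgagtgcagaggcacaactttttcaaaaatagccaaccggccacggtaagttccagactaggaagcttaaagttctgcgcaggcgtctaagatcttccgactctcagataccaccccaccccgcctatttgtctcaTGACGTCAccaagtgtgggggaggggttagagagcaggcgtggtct
The windows differed in base composition, with 78.4% G and C before the upstream start of Cdkn2a, 60% before the downstream start and 53.6% before Cdkn2b, against a median of 52.4% over 32851 mouse windows. The upstream Cdkn2a window held 40 CpG dinucleotides and the downstream window 7. GGGCGG was present in the upstream Cdkn2a window and in 7 of the 10 windows found for these genes, against 32.7% of all windows, and the CRE of the Cdkn2b window was present in 1.55% of all windows. Windows were found for 7 of the genes, and none for Rb1, Ccnd1 and Ccnd2.

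For the pocket proteins, the window of Rbl1, chr2:157204535-157204784 on the minus strand, is shown because it held TTTCGCGC, an E2F-type string that was searched. Such letters are read by the factors that p107 itself restrains.
Rbl1: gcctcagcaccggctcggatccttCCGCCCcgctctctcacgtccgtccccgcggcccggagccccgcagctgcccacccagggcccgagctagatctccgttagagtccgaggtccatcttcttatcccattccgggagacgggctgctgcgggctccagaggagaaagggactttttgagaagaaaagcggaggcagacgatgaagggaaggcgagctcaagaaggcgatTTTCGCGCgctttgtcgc
The E2F match TTTCGCGC began 18 bases before the end of the window. TTTCGCGC or TTTGGCGC was found in 1 of the 10 windows and in 0.654% of all windows. Other E2F-type letters were not searched, such as the tttcccgc that stands unmarked in the upstream Cdkn2a window. A match describes letters and not a bound factor.

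Of the 9 genes tested, expression in the GαqKO line was higher for 6, lower for 2 and did not pass the test for 1 (limma on log2(normalized count + 1), adjusted p under 0.05 over 14096 genes). This has to be read against a background in which 65.8% of all genes passed, 31.8% higher and 34.1% lower, so a high share of calls is not particular to these genes. The same 8 genes had groups that did not overlap, against 69.6% of all genes (33.8% higher and 35.8% lower). With the fold threshold of the study added, a log2 fold change over 1 or under -1, Ccnd1, which was higher, was the only one of the 9 left, whereas 20.7% of all genes passed and 10.2% of all genes passed on the higher side. The median log2 fold change was 0.26 for the 9 genes and -0.01 for all genes tested.

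**Figure D1:**
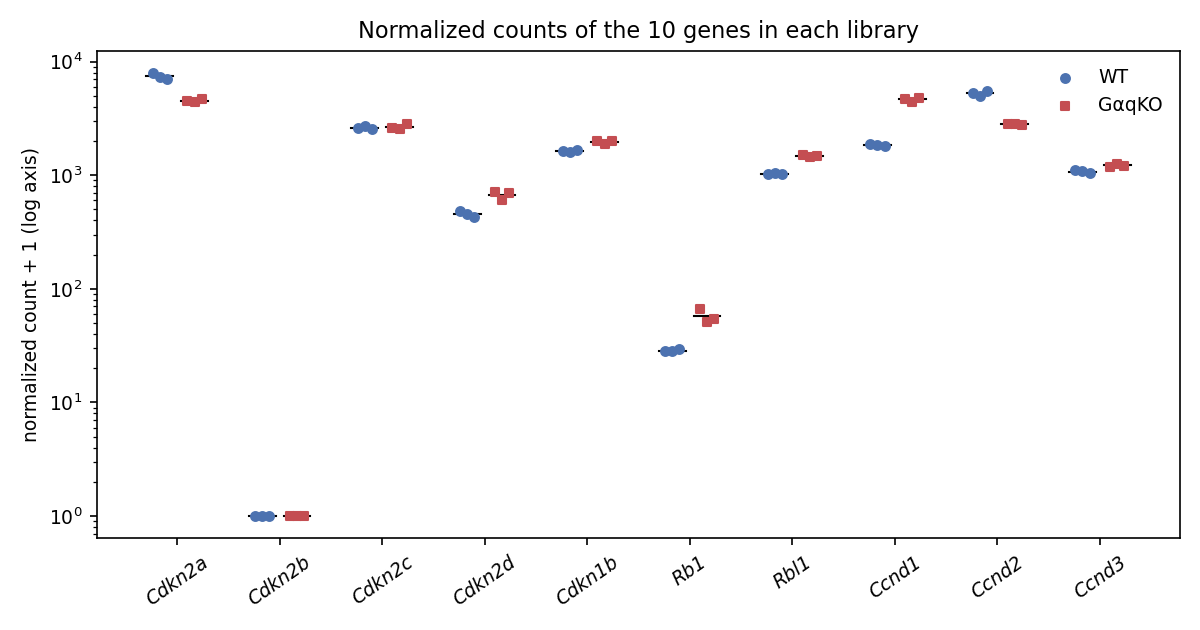
Normalized count plus 1 (log axis) of each of the 10 genes, with 1 point per library (circles WT, squares GαqKO) and a line at the mean of 3. Cdkn2a and Ccnd2 sit lower in the libraries labelled GαqKO, Ccnd1 sits at 4448 to 4747 against 1799 to 1872, Cdkn2b is at 0 throughout, and Rb1 lies far below the others that were tested.

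Among the INK4 genes, Cdkn2a carried the most RNA and was the one that fell. Cdkn2a (ENSMUSG00000044303.7, chr4:89192708-89212890 on GRCm39, minus strand) had 7946, 7323 and 6976 normalized counts in WT and 4457, 4384 and 4677 in the libraries labelled GαqKO. All 3 GαqKO values lay below the lowest WT value, and the mean fell from 7415 ± 492 to 4506 ± 152 (SD, n = 3 each). The log2 fold change was -0.72 (95% CI -0.83 to -0.61, adjusted p = 2.36e-08, limma). No other annotated gene in the table overlapped its exons, but the count cannot divide the loss between p16 and p19ARF.

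Cdkn2d (chr9:21199700-21202727, minus strand), which encodes the p19 INK4 protein, moved the other way. It had 481, 451 and 426 normalized counts in WT and 713, 609 and 689.8 in the libraries labelled GαqKO, which were all higher (log2 fold change 0.56, 95% CI 0.40 to 0.73, adjusted p = 1.68e-05, limma). Its exons, too, were free of other genes. Cdkn2c (chr4:109517957-109524386, minus strand), which encodes p18, had 2585, 2689.9 and 2559 in WT and 2610.5, 2568 and 2809 in the libraries labelled GαqKO. These ranges overlapped, and the log2 fold change of 0.03 did not pass the test (95% CI -0.07 to 0.13, adjusted p = 0.627, limma). A rise of more than 0.13 or a fall of more than 0.07 on the log2 scale lies outside that interval.

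Cdkn2b (chr4:89223204-89229276, minus strand), which encodes p15, was listed at 0 in all 6 libraries. All of its exon bases (100%) lie inside the span of Gm12610, a long noncoding RNA on the opposite strand that starts 0.159 kb from the Cdkn2a start and is transcribed across Cdkn2b. They lie in its introns only, as 0% overlap its exons. Gm12610 itself had 797, 749 and 825 normalized counts in WT and 759, 725 and 813 in the libraries labelled GαqKO, with no call (log2 fold change -0.05, 95% CI -0.18 to 0.09, adjusted p = 0.530, limma). Over the table, 0 was listed for 71.5% of the 1607 protein-coding genes with every exon base inside the span of another gene and for 25.2% of the 11516 with no overlap, and Tk1, a thymidine kinase gene of dividing cells, was also listed at 0. Whether the overlap bears on the 0 of Cdkn2b was not tested, and that 0 is reported as listed and not as absent expression.

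Cdkn1b (chr6:134897364-134902476, plus strand) was a little higher. It had 1639, 1603 and 1661 normalized counts in WT and 1992, 1864 and 1999 in the libraries labelled GαqKO, without overlap (log2 fold change 0.26, 95% CI 0.15 to 0.36, adjusted p = 0.000269, limma). Of its exon bases, 90.7% lie within the span of the opposite-strand Gm44238, which had at most 2.09 normalized counts in any library. Of the other CDK inhibitors of its family, Cdkn1a (p21) fell, with 287, 317 and 279 in WT against 167, 208 and 211 (log2 fold change -0.59, adjusted p = 0.000306, limma), and Cdkn1c (p57) was listed at 0 throughout and was not tested.

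Both of the chosen pocket protein genes, Rb1 and Rbl1, were higher in the libraries labelled GαqKO, from very different levels. Rbl1 (chr2:156987813-157046475 on GRCm39, minus strand) had 1025, 1045 and 1027 normalized counts in WT and 1503, 1441 and 1462 in the libraries labelled GαqKO (log2 fold change 0.51, 95% CI 0.41 to 0.61, adjusted p = 4.16e-07, limma). The groups were far apart for their spread, at 1033 ± 11.03 and 1469 ± 31.9 (SD, n = 3 each). Rb1 (chr14:73421113-73563507, minus strand) had only 27.1, 27.2 and 28.5 in WT, and 65.7, 49.7 and 53.4 in the libraries labelled GαqKO. Its mean was 2.04 times as high, with a wide interval (log2 fold change 0.99, 95% CI 0.53 to 1.45, adjusted p = 0.00103, limma).

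The Rb1 values come with a limit. Of its exon bases, 30.7% lie in the spans of other genes, chiefly Rcbtb2 on the opposite strand, and Rcbtb2 was also higher, with 116, 119 and 139 normalized counts in WT against 171, 215 and 191 (log2 fold change 0.62, adjusted p = 0.000746, limma). Whether reads of Rcbtb2 bear on the Rb1 count was not tested, and the strand setting of the counting is not given in the sources used here. The third pocket protein gene, Rbl2, which was not among the chosen genes, had 146, 148 and 180.2 in WT against 129, 170.0 and 159 and was not called (log2 fold change -0.05, 95% CI -0.35 to 0.24, adjusted p = 0.749, limma).

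In listed counts, Ccnd1 and Ccnd2 changed places. Ccnd1 (chr7:144483668-144493662, minus strand) had 1872, 1830.2 and 1799 normalized counts in WT and 4720.5, 4448 and 4747 in the libraries labelled GαqKO, the largest change of the 9 genes (log2 fold change 1.34, 95% CI 1.24 to 1.43, adjusted p = 9.03e-12, limma). The lowest GαqKO value was above the highest WT value by more than the whole WT count. Ccnd2 (chr6:127102125-127129156, minus strand) had 5336, 4950.4 and 5455 in WT and 2842, 2805 and 2775 in the libraries labelled GαqKO, again without overlap (log2 fold change -0.90, 95% CI -0.998 to -0.804, adjusted p = 6.77e-10, limma). Ccnd3 (chr17:47815767-47910624, plus strand) rose slightly, from 1101, 1077 and 1036 to 1192, 1255 and 1208 (log2 fold change 0.19, 95% CI 0.08 to 0.29, adjusted p = 0.00505, limma), and it was not called by DESeq2 on the 5 libraries with recovered reads (adjusted p = 0.0514).

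The genes tested that overlap Ccnd1 and Ccnd2 were not called. Of the exon bases of Ccnd1, 48.4% overlap exons of LTO1 on the opposite strand, which had 226 to 232 normalized counts in WT and 185.0 to 223 in the libraries labelled GαqKO (adjusted p = 0.115, limma). Whether reads in these shared bases were counted for Ccnd1 was not tested, so its level against other genes carries that limit. In Ccnd2, 7.97% of exon bases overlap exons of the opposite-strand 9330179D12Rik and 3.95% those of Gm43126, and 28.9% lie inside the spans of these genes, introns included. 9330179D12Rik had between 90.6 and 104 normalized counts in all libraries, and Gm43126, at no more than 2.31, was not tested.

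**Figure D2:**
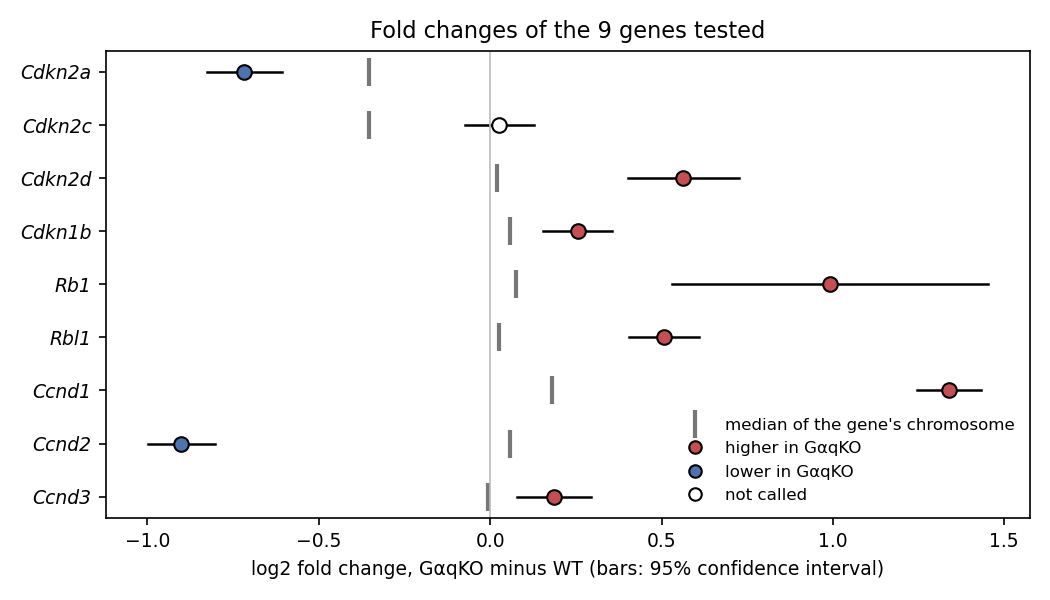
Log2 fold change, GαqKO minus WT, of the 9 genes tested, with the 95% confidence interval as a bar and the median of the gene's chromosome as a grey tick. Ccnd1 lies at 1.34 and Ccnd2 at -0.90, Rb1 has the widest interval, and Cdkn2c is the gene whose interval includes 0, to the right of the chromosome 4 median of -0.35.

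Levels of different genes can only be compared per length, and for this the normalized counts were divided by the kilobases of annotated exon. The authors aligned reads to the genome with Rbowtie2. Whether reads across exon junctions were counted alike in genes with many and few exons was not tested. Length does not correct for this, so every level and share between genes below carries that limit. On that scale the order in WT was Cdkn2a (6327 ± 419, SD, n = 3), Ccnd2 (558 ± 28.0), Cdkn2c (411 ± 10.9), Ccnd1 (383 ± 7.73), Cdkn1b (359 ± 6.47), Cdkn2d (272 ± 16.6), Rbl1 (141 ± 1.502), Ccnd3 (116 ± 3.53) and Rb1 (2.29 ± 0.063). No neighbors in this WT order overlapped between libraries, but the order depends on the length used. Whether the bases that Ccnd1 shares with LTO1 bear on its place was not tested. In the libraries labelled GαqKO, Ccnd1 stood second at 970 ± 34.6, behind Cdkn2a at 3845 ± 130, and Ccnd2 stood at 298 ± 3.57. Cdkn1b, Cdkn2c and Cdkn2d, at 429 ± 16.7, 419 ± 20.2 and 404 ± 32.7, did not differ there beyond their spread on this length. Cdkn2a was above 99.6% of the genes tested in WT and 99.2% in the libraries labelled GαqKO, whereas Rb1 was above 5.94% and 12.1%. Per kb of the canonical transcript, the WT order was Cdkn2a (8703 ± 577), Cdkn2c (969 ± 25.7), Ccnd2 (829 ± 41.6), Ccnd3 (531 ± 16.2), Ccnd1 (483 ± 9.74), Cdkn1b (359 ± 6.47), Cdkn2d (292 ± 17.7), Rbl1 (211 ± 2.25) and Rb1 (5.51 ± 0.153). On that length Cdkn2c, at 988 ± 47.6 in the libraries labelled GαqKO, lay above Cdkn1b and Cdkn2d, at 429 ± 16.7 and 432 ± 34.99. On both lengths Cdkn2a was first and Rb1 last of the genes tested in both groups, and Ccnd1 was second in the libraries labelled GαqKO.

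Within each library, Ccnd1 supplied 36.3%, 37.3% and 35.2% of the summed D cyclin level per kb in WT and 69.6%, 68.2% and 70.0% in the libraries labelled GαqKO. Ccnd2 went from 52.7% ± 1.49 to 21.3% ± 0.531 (SD, n = 3 each), and Ccnd3 from 10.97% ± 0.440 to 9.42% ± 0.464, a direction that turned without division by length (13.2% to 14.1%). The ratio of Ccnd1 to Ccnd2 was 0.689 ± 0.0393 in WT and 3.25 ± 0.124 in the libraries labelled GαqKO, 4.72 times as high (exact permutation test, two-sided, p = 0.1, the smallest that 3 against 3 allow). The sum of the D cyclins rose less than Ccnd1 alone, from 1057 ± 27.8 to 1400.0 ± 31.3 per kb, as Ccnd2 was lower (exact permutation p = 0.1). The rise in the sum was 1.32-fold per kb of exon, 1.23-fold per kb of the canonical transcript and 1.06-fold with no division by length. The shares depend on the length used, and whether they depend on the bases that Ccnd1 shares with LTO1 was not tested. With the length of the canonical transcript in place of all exons, Ccnd3 supplied 28.8% in WT and 26.6% in the libraries labelled GαqKO, and Ccnd1 26.2% and 53.8%. The Ccnd3 share overlapped between the groups on that length and without division by length (exact permutation p = 0.2 for both). The 4.72-fold change in the ratio of Ccnd1 to Ccnd2 does not depend on length.

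Cdkn2a made up 90.7%, 90.0% and 90.0% of the INK4 level per kb in WT and 81.9%, 82.9% and 82.3% in the libraries labelled GαqKO, with Cdkn2b counted at its listed 0. The INK4 level here is a sum of gene counts, and it includes any p19ARF transcripts in the Cdkn2a count, which encode no INK4 protein. The share of Cdkn2d rose from 3.89% ± 0.0171 to 8.64% ± 0.560 and that of Cdkn2c from 5.87% ± 0.376 to 8.97% ± 0.135 (SD, n = 3 each, exact permutation p = 0.1 for each). The INK4 sum was 7010.1 ± 436 per kb in WT and 4667 ± 169 in the libraries labelled GαqKO. Set against the D cyclins of the same library, the ratio of D cyclin to INK4 level was 0.151 ± 0.00918 in WT and 0.300 ± 0.00671 in the libraries labelled GαqKO, 1.99 times as high (exact permutation p = 0.1). Relative to Cdk4 and Cdk6 together, the D cyclin level went from 0.778 ± 0.0257 to 1.14 ± 0.0224 and the INK4 level from 5.15 ± 0.171 to 3.82 ± 0.113 (exact permutation p = 0.1 for both). All of these are ratios of RNA and say nothing of protein amounts. Those with the INK4 sum do not give p16 RNA against the kinases or the D cyclins.

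**Figure D3:**
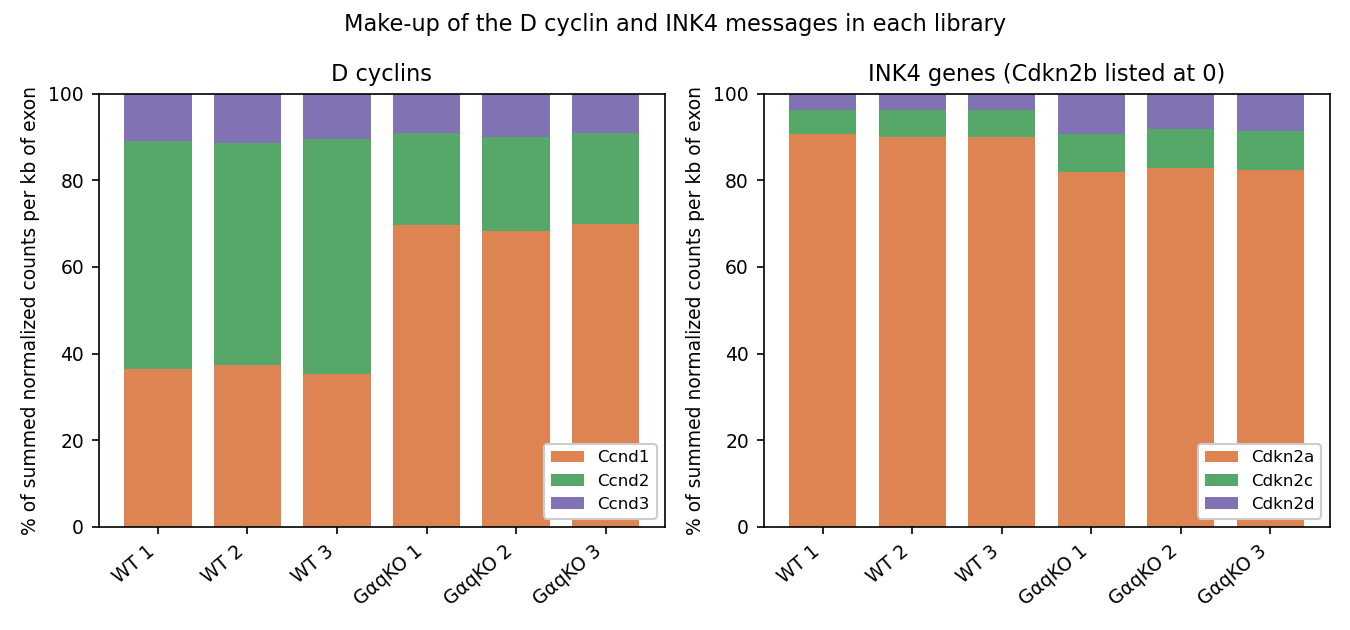
Share of each gene in the summed normalized counts per kb of exon, as stacked bars for each library, for the D cyclins on the left and the INK4 genes on the right. Ccnd1 takes 35.2% to 37.3% of the D cyclin bars in WT and 68.2% to 70.0% in the libraries labelled GαqKO, and Cdkn2a takes at least 81.9% of every INK4 bar.

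The ratio of Rbl1 to Rb1 per kb was 61.5 ± 2.03 in WT and 43.4 ± 5.21 in the libraries labelled GαqKO (exact permutation p = 0.1). With Rbl2 added, Rbl1 supplied 90.0% ± 1.01 and 91.9% ± 0.627 of the summed RNA of the pocket protein genes per kb (SD, n = 3 each). The limits given above for the Rb1 count and for levels between genes hold for the ratio and the share.

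The genes whose values over the 6 libraries were most like those of Ccnd1 were Kcnn4, a potassium channel gene (Pearson r = 0.9998 on log2 values), Eif2a, a translation initiation factor gene (r = 0.9997), and Slpi, a secreted protease inhibitor gene (r = 0.9997). Kcnn4 had 40.7 to 45.9 normalized counts in WT and 423 to 483 in the libraries labelled GαqKO. Such likeness was common, since 802 of 13775 genes (5.82%) had an r over 0.99. The 6 points form 2 groups, so r is a description only.

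The lists of pathway genes below are read against the 31.8% of all genes that were higher and the 34.1% that were lower. Of the 10 G1 kinases, E and A cyclins and activators, 3 were higher and 4 lower, shares near those of all genes, with a median log2 fold change of -0.10. Ccne1, the cyclin that drives CDK2 into S phase, had 191, 194 and 181 normalized counts in WT and 469.5, 403.5 and 408 in the libraries labelled GαqKO (log2 fold change 1.17, adjusted p = 6.44e-08, limma). Ccna2, the S phase cyclin, rose by 1.08 and Cdk7, a CDK-activating kinase, fell by 0.66 on the log2 scale. Cdk4 was slightly lower (-0.19, adjusted p = 0.00285, limma), and Cdk6 was not called (0.01, 95% CI -0.13 to 0.14).

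Among the factors that the pocket proteins bind, 6 of 10 E2F and DP genes were higher and 3 lower (median 0.21). E2f1, an activator and itself a known E2F target, had 1249, 1347 and 1263 in WT and 2885, 2894 and 2912 in the libraries labelled GαqKO (log2 fold change 1.17, adjusted p = 5.18e-11, limma). Tfdp1, the common dimer partner, rose by 0.68 and E2f4, a repressor that works with p107 and p130, by 0.67. The genes that E2F factors are known to activate were divided. Of 17 classic targets, 16 were tested, 5 were higher and 6 lower, and their median of -0.01 was that of all genes. Mcm6, a subunit of the replicative helicase, rose by 0.58, whereas the origin recognition gene Orc1 and the licensing gene Cdc6 fell by 0.71 and 0.44. Of 12 proliferation markers, 5 were higher and 4 lower (median 0.06), with Mki67 higher by 0.60, Aurka higher by 0.61 and Aurkb lower by 0.65.

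The regulators of the INK4 locus moved unevenly. Of 13 chromatin regulators, 12 were tested, 6 were lower and 0 higher (median -0.24), so 50% were called against 65.8% of all genes and 50% were lower against 34.1%. The 6 include genes of opposite known effect. Kdm6b, a demethylase that removes the Polycomb mark H3K27me3 and activates the locus, had 1203, 1273 and 1457 normalized counts in WT and 499, 526 and 544 in the libraries labelled GαqKO (log2 fold change -1.32, adjusted p = 1.53e-09, limma). The Polycomb genes Cbx7 and Cbx8, whose products repress the locus, fell by 0.62 and 0.56, and Ezh2, the H3K27 methyltransferase, fell by 0.39. The count of 0 higher under the test became 2 when the median of each chromosome was removed. A list of 8 further genes held transcription factors and Lmna, a nuclear lamina gene. Of these, 7 were tested, 4 were higher and 2 lower (median 0.43). Lmna was among those higher, at 0.43, and its value is the median of the list. Tbx3, a known repressor of the ARF and INK4 genes, had 205, 223 and 189 in WT against 734, 776 and 747 (log2 fold change 1.87, adjusted p = 1.17e-10, limma), and its relative Tbx2 and Twist1 rose by 1.27 and 0.93. The activators Ets1 and Ets2 fell by 0.50 and 0.69 on the log2 scale.

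Of 11 genes for turnover of p27 and the D cyclins, 10 were tested, 4 were higher and 4 lower (median -0.04). Ambra1, an adaptor through which D cyclins are destroyed, and Gsk3b, a kinase that marks cyclin D1 for export and decay, fell by 0.86 and 0.76, and Fbxo4, an F-box gene linked to cyclin D1, rose by 0.96. Skp2 and Cks1b, which direct p27 to destruction, rose by 0.33 and 0.45, whereas Cul1 of the same list fell by 0.32 and Skp1 was not called (-0.02). On the ARF and p53 arm, 5 of 7 genes were lower and 1 higher (median -0.57), which is 71.4% lower against 34.1% of all genes. Trp53 had 2872, 2856 and 2750 normalized counts in WT and 1580, 1657 and 1467 in the libraries labelled GαqKO (log2 fold change -0.85, adjusted p = 4.42e-09, limma). The p53 target genes Mdm2, Cdkn1a and Ccng1 fell by 0.72, 0.59 and 0.57, whereas Mdm4 was higher by 0.29. The remaining lower gene, the deacetylase gene Hdac2, fell by only 0.19, where the median of its chromosome, 10, was -0.28.

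**Figure D4:**
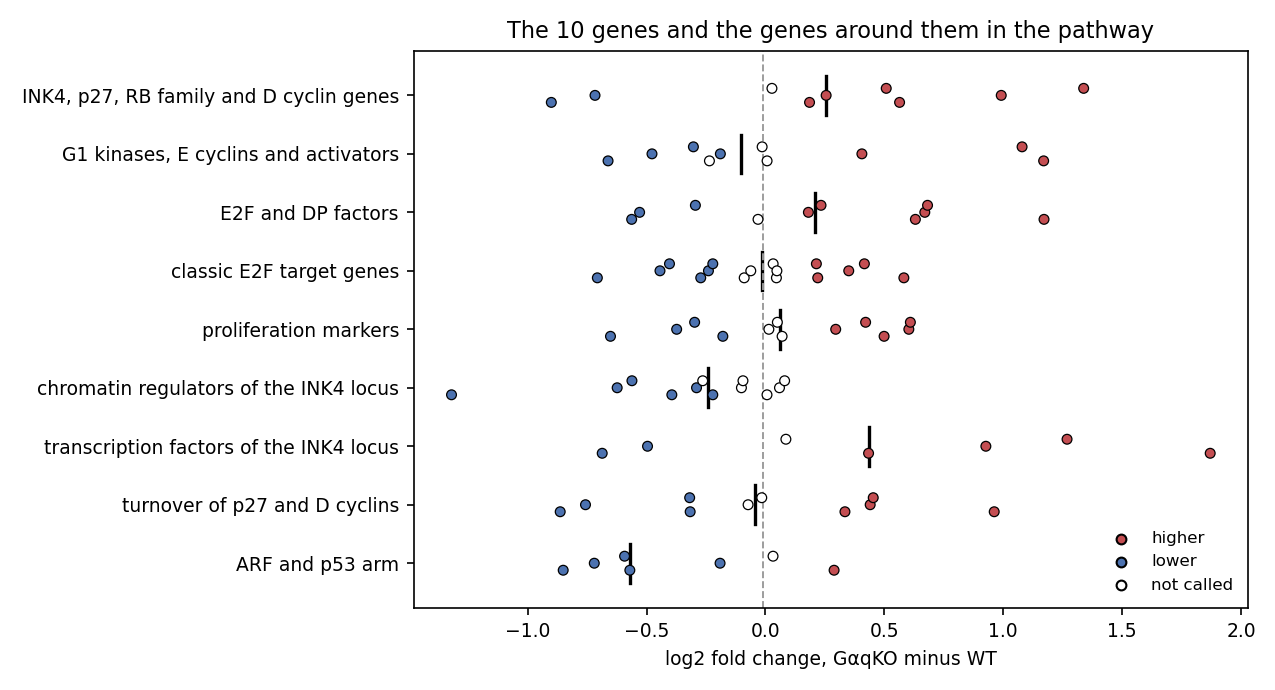
Log2 fold change, GαqKO minus WT, of every tested gene in the 10 chosen genes and in 8 lists around them, with filled points for calls, open points for genes not called, a bar at each list's median and a dashed line at the median of all genes, -0.01. The classic E2F target genes and proliferation markers spread to both sides of that line, and the ARF and p53 arm has its median at -0.57.

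Some chromosomes differed as a whole between the lines. The median log2 fold change was -0.35 over the 860 genes tested on chromosome 4, which carries Cdkn2a, Cdkn2b and Cdkn2c, 0.18 on chromosome 7, which carries Ccnd1, and between -0.01 and 0.07 on chromosomes 2, 6, 9, 14 and 17, which carry the others. Relative to its chromosome, Cdkn2a was lower by 0.36 and Cdkn2c higher by 0.38 on the log2 scale. With the chromosome medians removed in each library, Cdkn2a still fell, at -0.35 (adjusted p = 0.000391, the highest of its alternatives), and Cdkn2c passed the test at 0.39 (adjusted p = 5.37e-06, limma). Ccnd1 was 1.16 above its chromosome and Ccnd2 0.96 below its own.

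Within 1 Mb of the span from Cdkn2a to Cdkn2b, 61 other genes are annotated, of which 35 were listed at 0 and 11 were tested. Of the 11, 5 were lower and 2 higher, so 63.6% were called, near the 65.8% of all genes, with a median log2 fold change of -0.09. Mtap, a methionine salvage gene and the nearest protein-coding gene tested, had 3437, 3349 and 3096 normalized counts in WT and 2538, 2539 and 2393 in the libraries labelled GαqKO (log2 fold change -0.40, 95% CI -0.51 to -0.30, adjusted p = 6.62e-06, limma). This was near the chromosome median, and its interval did not reach that of Cdkn2a. Klhl9, a ubiquitin ligase adaptor gene, and Hacd4, a fatty acid elongation gene, were lower by 0.31 and 0.47, and Focad did not pass the test (0.35, 95% CI 0.02 to 0.67, adjusted p = 0.0602, limma).

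**Figure D5:**
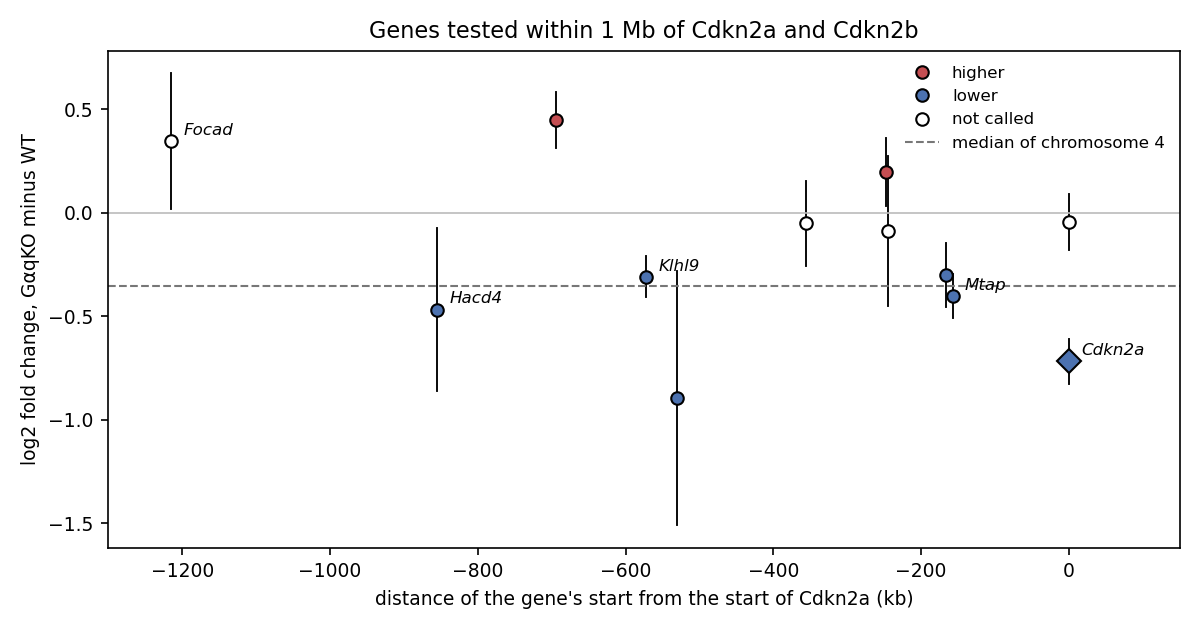
Log2 fold change, GαqKO minus WT, with its 95% confidence interval, of the 11 genes tested within 1 Mb and of Cdkn2a (diamond), against the distance of each gene's start from that of Cdkn2a in kb. Negative distances lie toward lower coordinates, the dashed line is the chromosome 4 median of -0.35, and Cdkn2a at -0.72 lies below it while the noncoding gene that starts beside it lies at -0.05.

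The identity of the cells was read from markers. Of the fibroblast markers, 11 of 12 were tested, of which 5 were higher and 6 were lower in the GαqKO line. Pdgfra and Dcn, which define many fibroblasts, had 17.5 to 21.9 and 30.1 to 35.5 normalized counts in WT against 2274 to 2356 and 1604 to 1710, and Thy1 had at most 2.09 in WT against 59.0 to 76.5. The collagen genes Col1a1, Col5a1 and Col1a2, the fibronectin gene Fn1 and the vimentin gene Vim went the other way, with log2 fold changes of -1.53, -1.55, -0.36, -0.73 and -0.32. The 8 epithelial markers summed to 1046 to 1147 in WT and 17.1 to 31.2 in the libraries labelled GαqKO, with Krt19, Krt14 and Cdh1 the 3 tested, all lower. The 7 immune markers summed to 188 to 209 in WT and 427 to 451 in the libraries labelled GαqKO, where Cd14 was higher by 1.83 and Cd68 lower by 0.48 on the log2 scale. The 6 neural markers summed to 469 to 533 in WT and 129 to 154, mostly Tubb3. Endothelial and skeletal muscle markers summed to at most 40.5 and 24.2 in any library. These differences run along the same 2 groups as every result above, and their part in the values of the INK4, RB and D cyclin genes was not tested. In bulk RNA, fewer cells of a type and less RNA per cell cannot be told apart.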

How the data were processed

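RNA sequencing of 3 WT and 3 GαqKO MEF libraries was analyzed, grouped by their labels. The authors selected poly-A RNA, sequenced paired ends, aligned the reads with Rbowtie2 to GRCm39, counted them with featureCounts on GENCODE release 32 and used DESeq2. The deposited table holds normalized counts (a signal: reads per gene scaled by 1 factor for each library), not raw counts. The strand setting of the counting is not given in the sources used here. Symbols, coordinates and exon lengths came from GENCODE release 39, which matched 56310 of 56953 identifiers. Promoter sequences came from RefSeq (GRCm38.p6). Genes that reached 10 normalized counts in 3 or more libraries were tested with limma 3.58.1 on log2(normalized count + 1). The prior spread followed a trend with expression, and p-values were adjusted over all genes by Benjamini-Hochberg. Fold changes are on that scale, which understates the change of low genes. Whole reads were recovered in 5 libraries (100.0% of nonzero values within 0.05 of a whole multiple), and edgeR 4.0.16 and DESeq2 1.42.0 were run on those as alternatives. On simulated data the limma script recovered 200 of 200 changed genes among 13842, with 6 false calls. The chosen genes and the lists around them were selected with earlier results of these data known. Named genes are the 10 chosen genes, the 3 called genes of each list with the largest change and a mean of at least 10, the protein-coding genes tested within 1 Mb of Cdkn2a and Cdkn2b, and the 3 genes most correlated with Ccnd1. Beyond this, Cdk4, Cdk6, Ezh2, Ets1, Ets2, Lmna, Skp2, Cks1b, Cul1, Skp1, Mdm4, Ccng1, Hdac2, Rbl2, Cdkn1c, Tk1, Xist, Col1a1, Col1a2, Col5a1, Fn1, Vim and the overlapping genes were named after their values were seen. R 4.3.3, Python 3.11.15, numpy 2.4.6, pandas 2.3.3 and matplotlib 3.10.9 were used.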

Additional observations from a re-analysis of the deposited data

How the results depend on the processing

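The calls of 7 of the 9 genes tested were the same in all 16 alternatives (TMM scaling, filters, pseudocounts of 0.5 and 5, no trend, the replicate block, chromosome medians removed, each library left out, and edgeR and DESeq2 on 5 libraries), and 14 alternatives gave 6 higher and 2 lower genes. The exceptions were Cdkn2c and Ccnd3. Cdkn2c, which was not called, turned to -0.0072 with DESeq2 on 5 libraries and to -0.012 without GαqKO replicate 3 (range with 1 library left out -0.012 to 0.053), all within its interval, and was called at 0.39 with chromosome medians removed. Ccnd3 missed the threshold with DESeq2 (0.20, adjusted p = 0.0514). With chromosome medians removed, the lower count of G1 kinases, E cyclins and activators became 2, and the higher counts of the chromatin regulators and of the ARF and p53 arm became 2 and 2. Without the filter, 1 chromatin regulator was higher.

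Over all genes, 1432 rose by more than 1 and 1486 fell by more than 1 on the log2 scale, and these became 831 and 765 with the filter applied in every library, where genes near 0 in a group cannot enter. Leaving out 1 library gave 1012 to 1439 higher and 942 to 1496 lower. Without WT replicate 1, 2 or 3 the lower count was 969, 973 and 942, since a gene must then pass the filter through at least 1 GαqKO library.

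Ratios between genes moved with the length used. Ccnd1 over Ccnd2 was 0.584 in WT and 2.76 in GαqKO with canonical lengths, an alternative added after seeing the data, and 0.350 and 1.65 with no division by length. The Ccnd1 share was 26.2% and 53.8%, or 22.5% and 53.5%. The Cdkn2a share of the INK4 level was 87.3% and 78.8%, or 70.7% and 57.5%. Rbl1 over Rb1 was 38.2 and 26.99, or 37.4 and 26.4. The D cyclin over INK4 ratio was 0.185 and 0.338, or 0.779 and 1.11. The direction from WT to GαqKO was the same for each of these. Levels per kb of the canonical transcript, given above, were also added after seeing the data. A window of 500 kb around Cdkn2a and Cdkn2b left 1 gene higher and 2 lower.

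The replicate numbers did not pair the libraries, since same-numbered deviations correlated at -0.045, -0.148 and -0.064. With the replicate block, 4324 genes were higher and 4638 lower, and the counts of 6 and 2 for the chosen genes did not change. Depth limits Rb1 most, at 27.1 to 65.7 normalized counts per library, where counting noise is a larger part of the value.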
